A study of Pinus pinaster with 24 samples.

Results

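In seedlings of maritime pine (Pinus pinaster), 150 transcript features were selected as the ones that stood highest in the cotyledons above the other organs while their cotyledon level differed little between sulfate-fed and control seedlings. They were picked out of 67271 features measured in roots, stem, needles and cotyledons. Levels were given as normalized CPM, read counts that the authors had scaled to library size, and were compared as log2(value + 0.5). A feature qualified when its cotyledon mean differed by less than 0.5 between treatments on that scale, which 63369 features did. Of those, the 150 with the largest gap were taken, where the gap is the cotyledon mean minus the highest of the root, stem and needle means in the control libraries. Measured values therefore chose the members, and their cotyledon levels, gaps, organ order in the controls and cotyledon difference between treatments are described without a test.

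Cotyledons are the seed leaves. In pines they form a whorl of green, needle-shaped leaves that photosynthesise while the seedling lives off its seed reserves, and true needles arise later from the shoot above them. Roots take up sulfate, and plastids, those of green leaves included, reduce it to sulfide, which is built into cysteine and from there into methionine and glutathione.

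The seedlings, of the Segura-Alcaraz provenance, were 4 months old and had all been starved of sulfur. From 1 month after germination, for 3 months, their weekly watering held 0.3 mM KNO3. Control seedlings then received 1 mM KCl and the others 0.5 mM K2SO4, and organs were frozen 24 h later. All 8 groups, control and sulfate in each of 4 organs, held 3 libraries, each from a pool of 13 to 14 seedlings. The control is thus a starved plant given KCl, and no group grown with sulfur throughout was used here. The libraries are called biological replicates in the labels. The p-values below set differences between group means against the spread between the 3 pools within groups.

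Between 92664463 and 195881948 reads stood behind a library, and 3 reads corresponded to a level of 0.0165 to 0.0351. Reads were recovered from the steps of the values, and 57.9 to 69.9% of the low ones, 1 to 20 reads, came out even. Both mates of a pair may thus have been counted, in which case fewer independent fragments than reads stand behind a level. Cotyledon control 1 was the deepest, with 195881948 reads, while the other cotyledon libraries held 97066476 to 102444498. The reads of libraries in the same group differed by more than sampling noise, with 10.95 to 68.1 of chi-square per feature. The features carry identifiers of the form PpCO2 and a number, which were not paired with gene names, sequences or genome positions here. No function can therefore be given for a member, and the organ labels could not be checked against defining markers. Levels are not divided by transcript length, so values of different features are not ranked against each other as amounts of RNA, and sums below describe reads.

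The summed level of the 150 members was highest in cotyledons and next highest in needles, while stem and roots overlapped. For the control libraries the lead of the cotyledons follows from how the members were chosen. Which organ came next was not set by the rule. In the cotyledon controls the sum was 6975 in library 1, 5856 in library 2 and 9193 in library 3, a mean of 7341 ± 1698 (SD, n = 3). In the cotyledons with sulfate the 3 sums were 7204, 5721 and 6815, a mean of 6580 ± 769 (SD, n = 3). Library 2 had the lowest sum of the 3 in both treatments, and the treatments overlapped. The needle sums were 402, 751 and 984 in the controls and 1064, 878 and 559 with sulfate. The highest of those 6 values was more than 2-fold the lowest, and all lay far under the lowest cotyledon sum. Stem sums were 163 to 205 in the controls and 144 to 176 with sulfate, and root sums 146 to 177 and 133 to 165. In bulk tissue, fewer cells of a type and less RNA per cell cannot be told apart, and this holds for every level below. The members took 0.533 to 0.851% of all reads in a cotyledon library, and the 5 members with most reads made up 19.9 to 45.9% of that share.

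**Figure D1:**
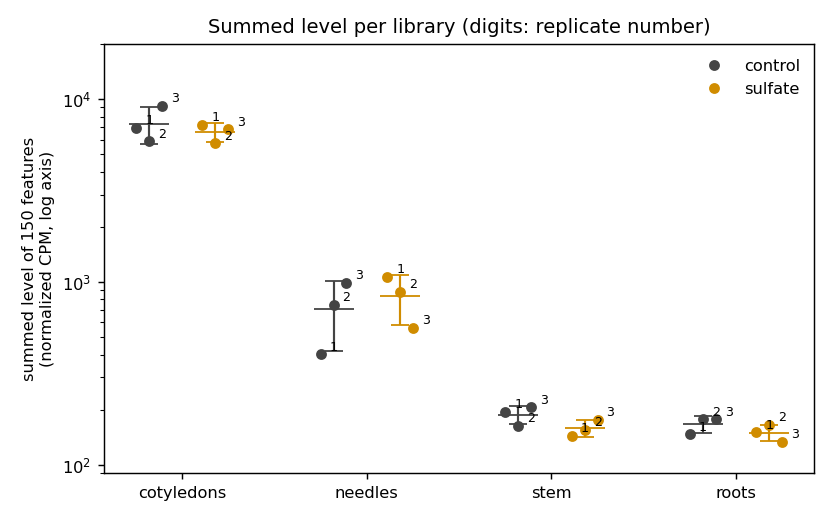
Summed level of the 150 members in each of the 24 libraries (normalized CPM, log axis), by organ and treatment. Digits give the replicate number, and bars the mean ± SD of 3 libraries. The cotyledon sums lie between 5721 and 9193, and the needle sums, the next highest, between 402 and 1064.

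For single members the gap ran from 2.53 to 4.74 in log2 units, around a median of 2.91, which is 5.77-fold to 26.6-fold and a median of 7.52-fold on the log2(value + 0.5) scale. The median member mean in the cotyledon controls was 25.7, with quartiles of 13.9 and 47.3 and extremes of 3.78 and 636. The median was 2.18 in the needle controls, 0.604 in the stem and 0.458 in the roots. At a mean of at least 1, 106 members were present in needle controls, 49 in stem and 53 in roots, so the set holds features that stand above other organs, not ones missing from them. No member lacked reads in all 18 libraries of the other organs, and none was at 0 in all needle or all stem libraries. In the roots, 4 members, PpCO2_11222, PpCO2_152549, PpCO2_152552 and PpCO2_23584, had 0 reads in each of the 6 libraries. Every cotyledon value exceeded all 18 other values in 138 members, and in 12 the ranges overlapped.

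In the sulfate libraries the cotyledons stood above the other organs as well, where the rule ties the cotyledon mean to that of the controls. The gap computed in them ran from 1.56 to 5.06 with a median of 2.93, and it stayed above 1 in all members. It was smaller than the control gap in 109 members, and in 104 it was still at least as large as that of the last member in the controls. The largest gaps were chosen in the control libraries, so a smaller value elsewhere was built into the comparison. The rule left close neighbours on both sides of its limit. The last members were PpCO2_90295 and PpCO2_40141 and the first features outside were PpCO2_70049 and PpCO2_135739, and the gap rounded to 2.53 in each of the 4.

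**Figure D2:**
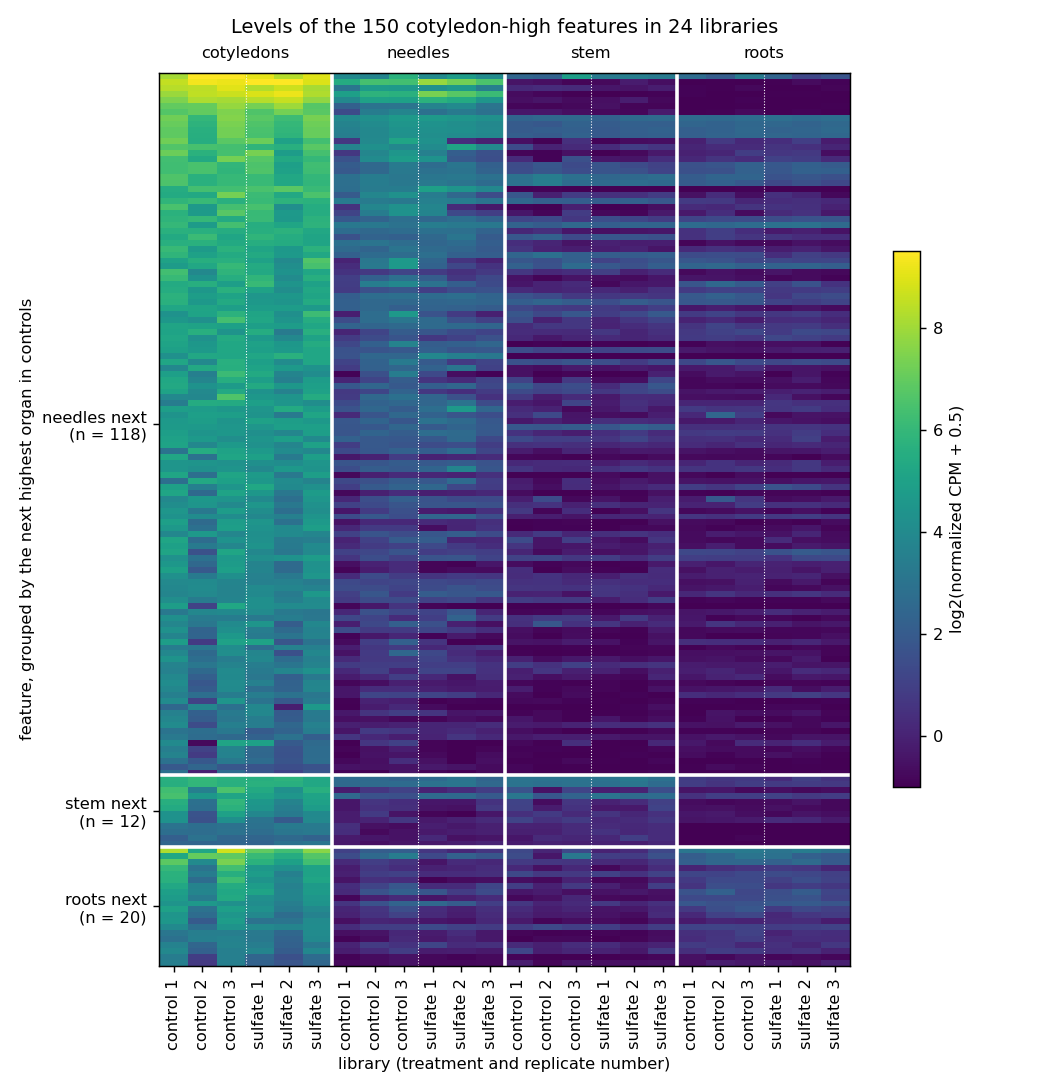
Levels of the 150 members (rows) in the 24 libraries (columns), as log2(normalized CPM + 0.5), with rows grouped by the organ that came next to the cotyledons in the controls (118 needles, 12 stem, 20 roots). The 6 cotyledon columns are the brightest, and among them the replicate 2 columns are darker for most rows.

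PpCO2_39444 had the largest gap, 4.74. In the cotyledons it stood at 63.1, 7.46 and 80.1 in the controls and at 23.4, 18.6 and 32.6 with sulfate, and no other library exceeded 1.21. Control 2 lay far below its 2 partners. PpCO2_1288, with a gap of 4.67, had 77.1, 11.1 and 91.5 in the cotyledon controls and 40.6, 18.8 and 49.3 with sulfate, against at most 2.68 elsewhere. Its neighbour in number, PpCO2_1289 (gap 4.42), followed the same course with 47.9, 6.84 and 60.2, then 23.3, 12.4 and 31.8. In all of these the number 2 library was the lowest of each treatment.

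PpCO2_125049 (gap 4.53) stood at 79.7, 14.6 and 56.1 in the cotyledon controls and at 40.3, 19.8 and 36.8 with sulfate, with no value over 1.76 in other organs. PpCO2_171001, PpCO2_171002 and PpCO2_171003 have consecutive identifiers and gaps of 4.27, 4.45 and 4.56. PpCO2_171003 had 35.2, 6.56 and 34.9 in the cotyledon controls and 25.8, 8.93 and 29.4 with sulfate, and at most 0.855 outside the cotyledons. PpCO2_171002 had 35.99, 5.54 and 33.2, then 23.1, 8.51 and 26.4, and PpCO2_171001 had 36.6, 7.06 and 35.7, then 31.1, 9.53 and 28.9. These neighbours were lowest in the same libraries.

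The other members among the 10 with the largest gaps had cotyledon control 2 within the range of its partners. PpCO2_23585 (gap 4.52) had 127, 129 and 228 in the cotyledon controls and 159.5, 246 and 107 with sulfate. Its needle values were 4.21, 7.57 and 7.78 in the controls and 12.5, 16.0 and 7.77 with sulfate, while stem stayed at or under 0.186 and roots at or under 0.0254. PpCO2_101766 (gap 4.44) had 329.7, 349 and 523, then 312, 419 and 279, with needles from 8.07 to 26.8. PpCO2_75281 (gap 4.67) had 272, 789 and 847, then 545, 323 and 500.4. It also held the highest stem mean of all members, with 4.95, 4.39 and 29.1 in the stem controls and 9.37, 10.7 and 9.43 with sulfate. Stem control 3 lay far above its partners, and so did needle control 3, at 52.2 against 15.4 and 12.8.

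The highest cotyledon values of all belonged to PpCO2_23586, whose gap was only 2.95. It stood at 370.4, 642 and 586 in the cotyledon controls and at 791, 929 and 489 with sulfate, and needles held 43.2, 84.7 and 80.4, then 234, 154 and 92.9. PpCO2_113200 (gap 2.90) had 239.9, 364 and 404, then 474, 579.7 and 302 in cotyledons, and PpCO2_113198 (gap 3.31) had 175, 299 and 273, then 318, 377 and 216. These abundant members were not low in the number 2 libraries. With sulfate, library 2 was in fact their highest.

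**Figure D3:**
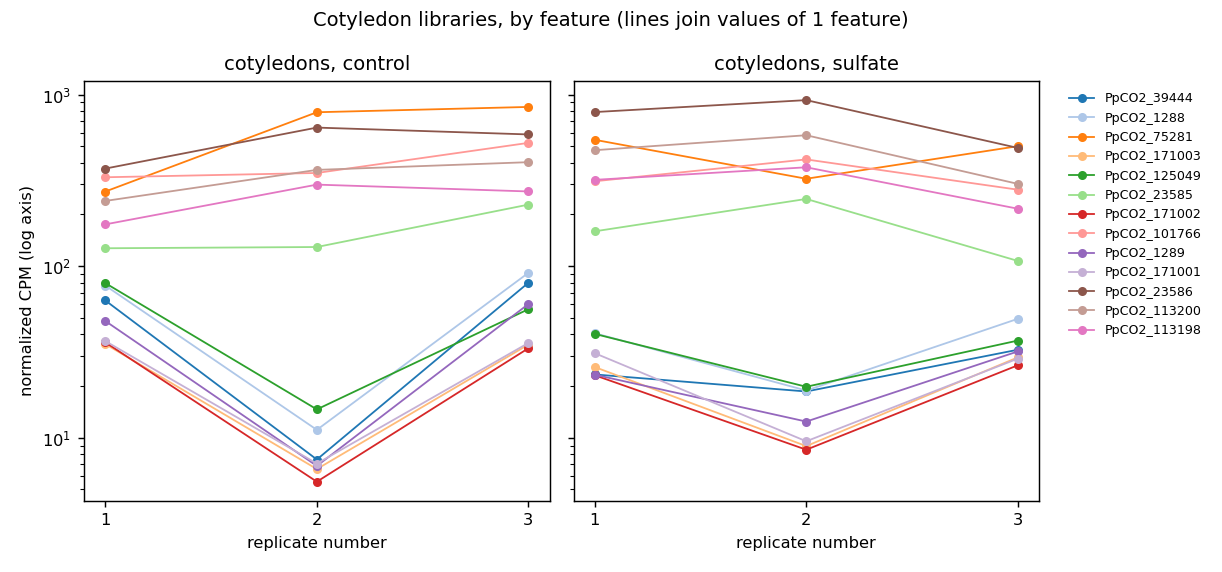
Levels of named members in the 6 cotyledon libraries (normalized CPM, log axis). Each line joins the values of 1 feature only as a guide, since replicates have no order. Members such as PpCO2_39444 (7.46 in control 2 against 63.1 and 80.1) are lowest in the number 2 libraries, while PpCO2_23586 (642 against 370.4 and 586) is not.

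The spread between replicate pools was far wider for the members than for other features. Their SD of log2 values within a treatment in the cotyledons had a median of 0.71, quartiles of 0.43 and 0.99 and extremes of 0.13 and 2.47, against a median of 0.16 over all features. At matched levels the difference was as wide: among features at 10 to 100 in the cotyledons the median SD was 0.12 over 19275 features and 0.72 over 118 members. In 147 of 150 members the SD exceeded the median of all features. The members' median SD was 0.44 in needles, against 0.18 for all features, 0.26 in stem, against 0.13, and 0.18 in roots, against 0.13. The same rule applied to needles, stem and roots gave 3 other sets of 150 features, none shared with these, and their median SDs in their own organs were 0.23, 0.19 and 0.17. The lowest gaps of those sets were 3.71, 2.20 and 4.67, so cotyledon features stood out from their next organ less than needle or root features did. These differences between sets of features are descriptions, and no test was made of them.

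**Figure D4:**
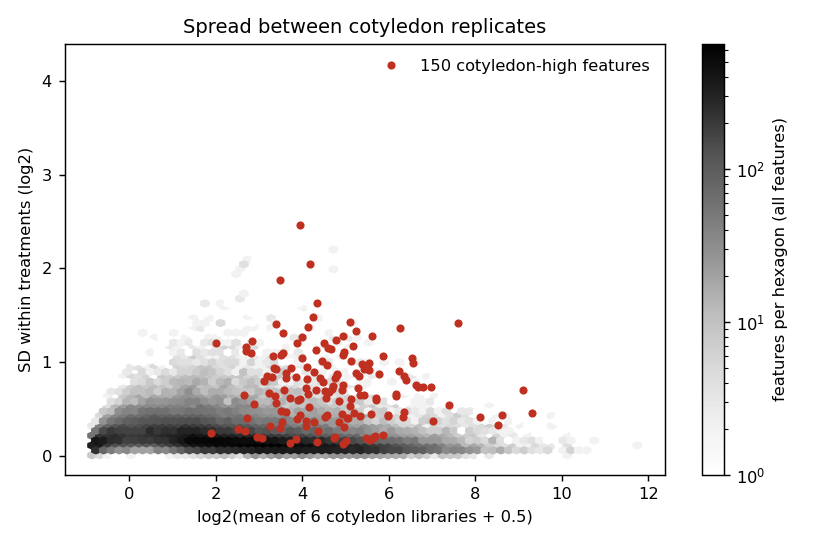
Standard deviation of log2 levels between cotyledon replicates within a treatment (y axis) against mean level over the cotyledon libraries of both treatments (x axis). The x axis shows log2(mean + 0.5). Shading counts all features per hexagon, and red points are the 150 members. Members lie well above the bulk at their level, with a median of 0.71 against 0.16 for all features.

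Replicate 2 carried much of this spread in both treatments. Cotyledon control 2 was the lowest of its 3 in 98 members (65.3%, against 35.8% of all features), and cotyledon sulfate 2 in 110 (73.3%, against 33.9%). Both held for 87 members. Set against the mean of replicates 1 and 3, the median member was lower by a log2 difference of −1.04 in control 2 and −0.83 in sulfate 2, while the median of all features was 0.00 in each. At least 2-fold lower in both number 2 libraries were 42 members (28%), compared with 0.526% of all features. The rule chose the members on the means of these same libraries and kept both treatment means close. A low library in both treatments is thus favoured over one in a single treatment, whatever the replicate numbers, which the rule did not use. No test was made of these shares. Without the number 2 libraries the members' median SD was 0.32, against 0.13 for all features, and without number 1 or number 3 it was 0.81 and 0.71. Of the 12 members whose cotyledon values overlapped other organs, 11 had their lowest cotyledon value in a number 2 library, and 148 of 150 were separated when both were left out.

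The members did not all follow this course. In 95 members both number 2 libraries lay below the mean of their partners. Their summed level was 4137, 1478 and 4762 in the cotyledon controls and 3033, 1564 and 3362 with sulfate. In 18 members both lay above it, with sums of 1264, 1906 and 1745, then 2115, 2484 and 1446. The remaining 37 went opposite ways in the 2 treatments. The labels give replicates the same numbers in both treatments without saying what a number stands for, and what libraries of the same number share was not tested.

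PpCO2_158045 had the widest spread, with 15.6, 0.104 and 34.3 in the cotyledon controls and 31.1, 3.37 and 5.66 with sulfate. Its control 2 value lay inside the range of the other organs, which reached 1.55. PpCO2_7724 had 28.6, 1.28 and 31.9, then 33.1, 2.88 and 7.55, and PpCO2_163792 had 5.19, 13.7 and 6.84, then 14.2, 0.412 and 24.3. At the other end, PpCO2_40142 had 34.5, 32.7 and 30.7, then 28.7, 27.1 and 36.1, and PpCO2_40141 had 21.7, 21.1 and 19.3, then 18.04, 16.5 and 21.6. These neighbours in number had the smallest SD of the 150 over all 6 cotyledon libraries, together with PpCO2_155046 at 50.0, 48.1 and 44.4, then 46.8, 53.8 and 39.0. By the SD within treatments other members, such as PpCO2_42350, were steadier.

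The limit on the sulfate difference applied to means, and the error of that difference was wide beside it for many members. The difference in cotyledons, sulfate minus control, ran from −0.50 to 0.48 with a median of −0.22, and 121 members were lower and 29 higher with sulfate. Over all features the median was 0.00, and 48.6% were lower. The members were chosen for a high control mean, which favours a lower mean with sulfate, so all features are not a matched background here. The standard error of a member's difference had a median of 0.58, against 0.13 for all features, and in 92 members it was at least 0.5, the limit itself. Among all features that held for 3.24%. The error was below 0.25 in 19 members. These errors take the 6 libraries as unpaired. Same-numbered cotyledon libraries deviated together, and with the replicate number as a block the median error was 0.34, against 0.11 for all features. It was then at least 0.5 in 45 members, against 2.29% of all features, and below 0.25 in 51. With the block the error was smaller in 115 members and larger in 35. PpCO2_91945 came nearest to the limit, at −0.50, with 14.6, 4.02 and 15.5 in the controls and 8.53, 4.03 and 8.95 with sulfate, which overlap. PpCO2_106180, also at −0.50, had 14.3, 22.8 and 21.1, then 15.5, 6.60 and 22.6, where sulfate 2 alone lay under the control range.

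Leaving out a single cotyledon library moved many members across the limit. Of the 150, 74 stayed within it without control 2 and 95 without sulfate 3, and 110 to 138 without another library. Without control 2 the median difference became −0.48. The features that the limit removed were mostly lower with sulfate too. Of the 150 largest gaps taken without any limit, 82 were members and 68 were not. Of those 68, 64 were lower with sulfate, and the median difference over the 68 was −0.70. Their median SD was 1.05. Being taken for a high control mean favours a fall with sulfate in these features as well. PpCO2_39443, the neighbour of the leading member, lay just outside the limit with a difference of −0.503 and a gap of 4.96, larger than that of any member.

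Needles were the organ next to the cotyledons for most members, in 118 of 150 in the controls, followed by roots in 20 and stem in 12. The control means behind that order were used by the rule. The 9 sulfate libraries of roots, stem and needles were not, and limma was fitted to them across all features, calling those with a Benjamini-Hochberg adjusted p under 0.05. Needles were higher than stem in 90 members (60%), where 27.3% of all features were called, and lower in 5 (3.33%), where 35.0% were called. The median difference was 0.88 over the members and −0.08 over all features. Needles were higher than roots in 94 members (62.7%, background 31.9%) and lower in 12 (8%, background 38.9%), with medians of 1.03 and −0.11. Stem was higher than roots in 31 members (20.7%, background 31.3%) and lower in 28 (18.7%, background 25.4%), with medians of 0.00 and 0.05. In 77 members (51.3%) the needles were called higher than both other organs, as they were in 21.9% of all features.

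Needle libraries varied as well. Needle control 1 was the lowest of its 3 libraries in 123 members (82%, against 38.8% of all features) and sulfate 3 in 81 (54%, against 38.3%). The counts against stem and roots with sulfate rested on no single library, with 84 to 97 and 86 to 94 members higher in needles when each of the 9 was left out in turn. Of the smaller counts, the 28 members lower in stem than in roots became 16 without stem sulfate 2. The 5 lower in needles than in stem became 8 without needle sulfate 1, 3 without needle sulfate 2 and 2 with edgeR on the recovered reads.

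**Figure D5:**
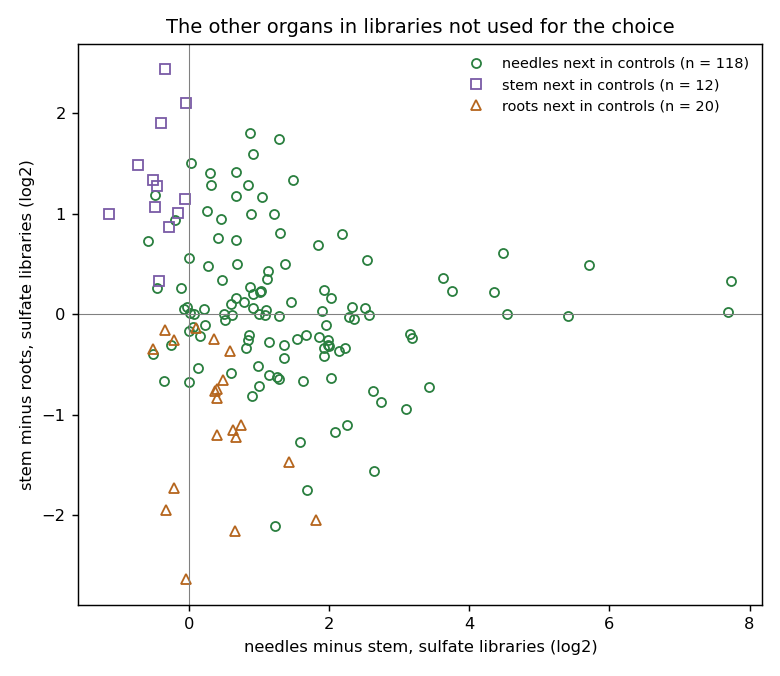
Differences between organs in the 9 sulfate libraries for the 150 members, needles minus stem (x axis) against stem minus roots (y axis), both on log2(normalized CPM + 0.5). Points are coloured by the organ next to the cotyledons in the controls. Most needle-next members lie right of 0, and the 20 root-next members lie below 0 on the y axis.

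The calls followed the organ order of the controls. Of the 118 members with needles next, 85 were called higher in needles than in stem and none lower, and 86 were called higher in needles than in roots and 4 lower. Of the 20 with roots next, 8 were called lower in needles than in roots and none higher, and 13 lower in stem than in roots. Of the 12 with stem next, 10 were called higher in stem than in roots, and 4 lower in needles than in stem. The organ with the second highest mean was the same in both treatments in 131 members.

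PpCO2_23586 showed the largest difference from needles to stem and roots. With sulfate it stood at 234, 154 and 92.9 in needles, 0.108, 0.381 and 0.147 in stem and 0.0178, 0.125 and 0.0400 in roots, with no overlap. Needles exceeded stem by 7.74 ± 0.29 (log2 ± SE, limma, adjusted p = 1.74e-08) and roots by 8.07 ± 0.29 (adjusted p = 6.76e-09). PpCO2_113200 had 163, 108 and 70.3 in needles and nothing above 0.0368 in stem or roots with sulfate. Its needles exceeded stem by 7.69 ± 0.24 (limma, adjusted p = 4.24e-09) and roots by 7.72 ± 0.24 (adjusted p = 1.81e-09). PpCO2_113198 followed with 51.4, 42.2 and 21.98 in needles and at most 0.390 in stem, while its 3 root libraries held no reads. The difference from needles to stem was 5.71 ± 0.28 (limma, adjusted p = 7.54e-08) and to roots 6.20 ± 0.28 (adjusted p = 2.36e-08). All of these were high in cotyledons and needles and near 0 in stem and roots.

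PpCO2_50721 held the highest root mean of the members and had roots as its next organ. In cotyledons it stood at 294, 36.9 and 426 in the controls and at 123, 76.3 and 199 with sulfate. With sulfate the roots held 7.63, 10.1 and 7.46, the needles 1.08, 0.617 and 1.02 and the stem 0.509, 0.723 and 1.83, and the root values lay above all others. Needles were lower than roots, with a log2 difference of −2.67 ± 0.29 (limma, adjusted p = 1.88e-05), and so was stem, with −2.64 ± 0.29 (adjusted p = 4.61e-05). PpCO2_8037, also a root-next member, had 4.32, 5.67 and 3.46 in roots and 0.257, 0.716 and 0.636 in needles, a difference of −2.27 ± 0.24 (limma, adjusted p = 1.11e-05). PpCO2_54911 had 2.46, 2.67 and 1.62 in roots and 0.257, 0.441 and 0.740 in needles, a difference of −1.50 ± 0.20 (limma, adjusted p = 8.49e-05). Its stem was lower than its roots by a log2 difference of −2.15 ± 0.20 (limma, adjusted p = 1.32e-05). In the cotyledons, all of these root-next members were lowest in the number 2 libraries. PpCO2_8037 had 115, 15.6 and 165, then 51.2, 30.9 and 80.5, and PpCO2_54911 had 26.8, 9.71 and 40.7, then 18.5, 12.8 and 22.6.

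PpCO2_136968 had needles next in the controls, yet with sulfate its roots were highest of the 3 organs. Roots held 2.65, 3.52 and 2.93, stem 0.176, 0.247 and 0.579 and needles 1.32, 1.49 and 1.43. Stem was lower than roots by a log2 difference of −2.10 ± 0.18 (limma, adjusted p = 6.87e-06). In the cotyledons its values were 35.0, 2.56 and 35.98, then 13.9, 8.49 and 14.8, so that control 2 lay within the range of the roots.

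The members that most exceeded roots in the stem included a pair that was steady in the cotyledons. PpCO2_42352 had 48.3, 61.9 and 50.9, then 47.6, 55.3 and 39.3 in the cotyledons. With sulfate its stem held 7.52, 9.19 and 6.96 and its roots 0.748, 1.47 and 0.992, a difference of 2.44 ± 0.20 (limma, adjusted p = 4.77e-06). Its neighbour PpCO2_42351 had 6.85, 8.28 and 5.92 in stem and 1.22, 1.32 and 1.15 in roots, a difference of 2.11 ± 0.16 (limma, adjusted p = 2.52e-06). PpCO2_110262 had 7.82, 5.61 and 6.09 in stem and 1.59, 1.17 and 1.34 in roots, a difference of 1.90 ± 0.19 (limma, adjusted p = 1.91e-05). Unlike that pair, it varied in the cotyledon controls, with 86.1, 22.8 and 34.2.

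Outside the cotyledons, few members were called as changed with sulfate feeding. The sulfate libraries of these organs were not used by the rule, but the controls were, since a member needs low control means there, which favours a rise over a fall. In roots, 146 members had reads and could be tested with limma, and 2 fell with sulfate (1.37%, against 1.22% of all features), while 0 rose (background 0.396%). At an unadjusted p under 0.05 there were 17 lower and 8 higher of 146, against 4543 and 4946 of 67127 features. edgeR on the recovered reads called 1 and 0. In stem, limma called 0 of 150 higher (background 0.109%) and 0 lower (background 0.474%), and edgeR called none. At an unadjusted p under 0.05 limma gave 3 and 9, against 3764 and 3512 of 66887 features. In needles, limma called 0 higher (background 0.03%) and 0 lower (background 0.429%), and edgeR again called none. The limma counts at an unadjusted p under 0.05 were 6 and 7, against 1922 and 2906 of 66733 features. The median log2 difference over the members tested was −0.01 in roots, −0.09 in stem and −0.07 in needles, and over all features 0.01, 0.00 and −0.02. The share of members called in roots was near the background, and the backgrounds in stem and needles correspond to fewer than 1 call among 150 members. Many members were also low in stem and roots. Their median control mean was 0.604 in stem and 0.458 in roots, near the 0.5 added before the logarithm. The few calls therefore do not show that few members changed. Without needle control 1, limma called 3 members lower in needles, and without stem control 3 it called 1 higher in stem.

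The clearer of the members that fell in roots was PpCO2_50259. Its root values were 3.15, 3.35 and 3.03 in the controls and 1.67, 1.35 and 1.72 with sulfate, and the groups did not overlap. The log2 difference was −0.83 ± 0.12 (limma, adjusted p = 0.0162, and 0.0127 to 0.0649 under the alternatives tried). In cotyledons it stood at 50.3, 23.5 and 40.8, then 24.02, 21.03 and 41.8. The other was PpCO2_155046, one of the steadiest members in cotyledons, with 0.930, 1.43 and 0.812 in root controls and 0.347, 0.456 and 0.216 with sulfate. Its log2 difference was −0.88 ± 0.17 (limma, adjusted p = 0.0496). This count of 2 fell to 0 when root control 2, root sulfate 1 or root sulfate 2 was left out.

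Whether sulfate acted differently in roots, stem and needles was tested with limma's F test of the organ by treatment interaction over 18 libraries. It called 1 member (0.667%, against 0.291% of all features), PpCO2_23584, with an adjusted p of 0.035. At an unadjusted p under 0.05 there were 16 of 150 members, against 5004 of 67271 features. edgeR called 0. PpCO2_23584 had 2.75, 5.18 and 4.95 in needle controls and 14.2, 11.1 and 8.66 with sulfate, where the groups did not overlap. In stem its highest value was 0.0287, and roots held no reads. A fall with sulfate could thus not show in either organ, and the fit pooled their near-constant values with those of needles. The needle difference by itself, 1.32 ± 0.25, had an adjusted p of 0.164 in limma and was not called. In cotyledons the member stood at 18.6, 39.0 and 36.9, then 36.3, 50.5 and 36.3. It neighbours PpCO2_23585 and PpCO2_23586 in number, and in all 3 the needle values were higher with sulfate in library 1 and 2 than in any control, which was not called for the latter pair (limma, adjusted p = 0.677 and 0.621). The count of 1 became 3 without needle control 1 or needle sulfate 3 and 0 without any stem or root library, needle sulfate 1 or needle sulfate 2.

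Many members lay side by side in the numbering of features. With identifiers at most 2 apart and a correlation over 0.8 across the 24 libraries, the 150 members formed 100 runs, of which 31 held 2 or more members and 81 members in all. A correlation that high was common among the members, found in 86.5% of the 11093 pairs from different runs as well. Within the cotyledon treatments, deviations from the group mean had a median correlation of 0.97 over 82 pairs of the same run and of 0.33 over 11093 other pairs of members, all from the same 6 libraries. Whether neighbours share reads, as close copies would, was not tested, and how shared reads were counted is not given in the sources used here. Single members of a run are therefore uncertain and do not count as independent.

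The largest run, PpCO2_84548 to PpCO2_84553, held 6 members with cotyledon means of 21.3 to 81.2 and gaps of 2.55 to 3.06. Its highest member, PpCO2_84550, stood at 79.8, 41.0 and 159 in the cotyledon controls, at 105, 39.5 and 62.6 with sulfate, and in needles at 2.60, 16.3 and 27.8, then 20.01, 3.35 and 2.35. Both organs varied several-fold between pools. The run of 5 from PpCO2_171001 to PpCO2_171005 had means of 5.99 to 24.8 and gaps of 3.22 to 4.56. The other run of 5, from PpCO2_73807 to PpCO2_73813, had means of 16.6 to 71.4 and gaps of 2.72 to 3.64. Its highest member, PpCO2_73807, had 77.7, 88.1 and 58.7, then 97.4, 31.4 and 75.02 in cotyledons, and 1.70 to 9.07 in the other organs.

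Neighbours that were not members leaned the same way. Of 238 features listed within 2 numbers of a member and outside the set, 153 (64.3%) were highest in cotyledons in the controls, against 29.7% of all features. Their median gap was 0.858, against −0.356 for all features, and 11 had a gap past that of the last member. The neighbours share their identifiers' order with members chosen for this pattern, so these values describe the numbering and are no separate evidence of it.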

How the data were processed

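The deposited table gives a level for each of 67271 features in 24 libraries. Its columns do not add up as plain CPM would, so the values deposited by the authors were handled as a signal, namely CPM after further scaling of library sizes. Per the submitters' processing notes, bcl2fastq and BWA were used. How reads were counted, scaled and filtered, and on which reference, is not given in the sources used here. Paired reads of 150 bp came from poly(A) RNA, per the labels' protocols, and the libraries are not described as keeping strand, so antisense transcripts cannot be told apart. The table lists only features that reach 1 in no fewer than 3 libraries. All values (100%) are whole multiples of their library's step within 0.01, which gave the reads.

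From there, limma 3.58.1 (trend and robust) was fitted in R 4.3.3 to log2(value + 0.5), with Benjamini-Hochberg adjustment over all features tested and a threshold of 0.05. Such differences understate the change of low features. Features needed only a value above 0 in 1 library of the fit, since a higher minimum lets members pass through the organ where they are high. edgeR 4.0.16 (quasi-likelihood) on the recovered reads was an alternative. Other alternatives were pseudocounts of 0.1 and 2, a minimum of 1 in at least 3 libraries, rescaling by the median ratio, the replicate number as a block, and leaving out each library. Fits were tested on simulated data. Same-numbered control and sulfate libraries of the cotyledons deviated together (correlations over all features of 0.17, 0.30 and 0.21 for numbers 1, 2 and 3), so the error of the cotyledon difference is also given with the number as a block, an alternative chosen after seeing the data. The labels do not say what a number marks.

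Named are the 10 members with the largest gap, the 5 highest in cotyledons, up to 3 per contrast and direction that were called, did not overlap and had a mean of at least 2, the highest of the 3 largest runs, those at the limits, the 3 with the smallest and the 3 with the largest SD, and the highest in each other organ. The SD in that choice is taken over all 6 cotyledon libraries. PpCO2_155046 and PpCO2_23584 are also named as called, and PpCO2_39443 was chosen after its values were seen. Members and lists were chosen with earlier results of these data known. Figures were drawn in Python 3.11.15 with matplotlib 3.10.9.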

Additional observations from a re-analysis of the deposited data

Results flagged for a closer look

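PpCO2_23584 was called in limma's F test of the interaction of sulfate with organ (roots, stem and needles) over 18 libraries (adjusted p = 0.035). Its level was 4.29 ± 1.34 in needle controls and 11.3 ± 2.77 with sulfate (SD, n = 3), 0.0126 ± 0.0146 and 0 in stem, and 0 in all root libraries. Stem and roots, at or near 0, could show no fall, and the fit pooled their near-constant values with the needle values. The member was higher in 3 of 3 sulfate needle libraries than in any needle control. The adjusted p stayed under 0.05 in 8 of 24 alternatives. It was 0.101 without needle sulfate 1, 0.0118 without needle sulfate 3 and 0.772 with edgeR.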

How the results depend on the processing

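The counts of members higher in needles than in stem, higher in needles than in roots and higher in stem than in roots stayed within 1.5 times their values under every alternative tried, at 84 to 97, 86 to 94 and 28 to 33 with a library left out. No named result changed direction. The 2 members lower with sulfate in roots became 1 with a pseudocount of 0.1 or 2, with a minimum value (49 members tested), after rescaling and with edgeR, and 0 to 2 with a library left out. Members higher with sulfate in stem numbered 0 to 1, and lower in needles 0 to 3, with a library left out. The 5 members lower in needles than in stem became 1 with the minimum value (90 tested), 2 with edgeR and 3 to 8 with a library left out. Those lower in stem than in roots ranged from 16 to 33. The interaction call became 0 with a pseudocount of 0.1 or edgeR and 0 to 3 with a library left out. The causes were not tested.

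Membership itself moved. Of the 150 members, 82 were kept without the limit on the sulfate difference, 72 with a limit of 0.25, and 72 to 110 with libraries left out, the fewest without cotyledon control 2. Pseudocounts of 0.1 and 2 kept 109 and 116, and rescaling 145.

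With the replicate block, added for cotyledons after seeing the data, an error of at least 0.5 on the cotyledon difference was found in 45 members in place of 92. In the planned fits with the block, 4 members were lower in roots with sulfate, and 91 and 94 were higher in needles than in stem and roots. Deviations of same-numbered libraries correlated at −0.35 to 0.24 between treatments in roots, stem and needles, with both signs. Between those organs with sulfate they correlated at 0.08 to 0.37, all above 0 and reaching as high as in the cotyledons. The main fits took no replicate block, and whether a number pairs libraries of different organs was not tested. Where a correlation was negative, a library went better with another number than with its own.

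A level of 3 reads is at most 0.0351, so depth limits the ratios of members near 0 in stem and roots. Such limits cover counting error only.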
